A study of Mus musculus with 8 samples.

Results

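The expression of 10 genes of prostaglandin synthesis, signaling and degradation was examined in primary calvarial osteoblast cultures treated with PTH or vehicle. The genes were picked by symbol from the 47706 rows of the deposited gene table, and each symbol stood in a single row. They are the cyclooxygenase genes Ptgs1 and Ptgs2, the synthase genes Ptges and Ptgis, the PGE2 receptor genes Ptger1, Ptger2, Ptger3 and Ptger4, the PGF2α receptor gene Ptgfr, and Hpgd, which encodes the enzyme that inactivates prostaglandins. RNA was sequenced from 4 cultures that received PTH for 24 hours and 4 that received vehicle for 24 hours, all after 7 days of differentiation. The cells were isolated from the skullcaps of newborn mice and serum-starved before treatment, according to the study's methods. No genotype, strain or sex is given for these cultures, and no source used here explains the prefix Con in the sample names. The labels call the differentiation adipogenic where the methods describe osteogenic medium. The question was how PTH changes gene expression in these cells.

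Prostaglandins are short-lived lipids made from arachidonic acid. Phospholipase A2 frees the fatty acid from membranes, a cyclooxygenase turns it into PGH2, and terminal synthases make PGE2, prostacyclin, PGD2, PGF2α or thromboxane from that intermediate. Osteoblasts are a known source of PGE2, which acts on the cells around it through the receptors EP1 to EP4, and cyclooxygenase-2 is the inducible form of the enzyme in bone.

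Total counts lay between 33605610 and 56090654 in the PTH-treated cultures and between 41618108 and 46757836 in the vehicle-treated ones, and all 10 genes were among the 16736 that had enough counts to be tested. Levels are given in CPM, counts per 1000000 after scaling of the libraries by the TMM method of edgeR, as means ± SD of 4 cultures. The comparison of PTH with vehicle used the quasi-likelihood test of edgeR, and a gene was called higher or lower at a Benjamini-Hochberg adjusted p under 0.05 over all tested genes. Tnfsf11, which encodes RANKL and is a known PTH target, had 43 to 89 counts per vehicle-treated culture and 3898 to 8068 per PTH-treated culture. Gene positions are those of GRCm38. The median level of 10 osteoblast markers was between 208 and 353 CPM over the 8 cultures, and that of 8 adipocyte markers was between 4.51 and 7.08 CPM. Single markers spread widely within each list. Lpl of the adipocyte list had 378 to 446 CPM, and Dmp1 of the osteoblast list had 6.71 to 26.5 CPM. Of the markers in both lists, 3 osteoblast markers (Runx2, Sp7 and Dmp1) and 1 adipocyte marker (Pparg) were lower with PTH and none was higher. Of all tested genes, 22.5% were called lower and 23.3% higher. Nothing states that the cultures of a treatment came from separate cell preparations, so the p-values measure the spread between these cultures.

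Of the 10 genes, 4 were higher with PTH (Ptgs2, Ptgfr, Ptger4 and Ptgs1) and 1 was lower (Hpgd). Of all tested genes, 23.3% were called higher and 22.5% lower. The same 5 genes were those in which the treatments did not overlap, 4 with every PTH-treated culture above every vehicle-treated one and 1 with every PTH-treated culture below. Among all tested genes, 21.2% were separated upward in this way and 21.8% downward. The median log2 fold change of the 10 genes was 0.11, against -0.00081 for all tested genes.

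**Figure D1:**
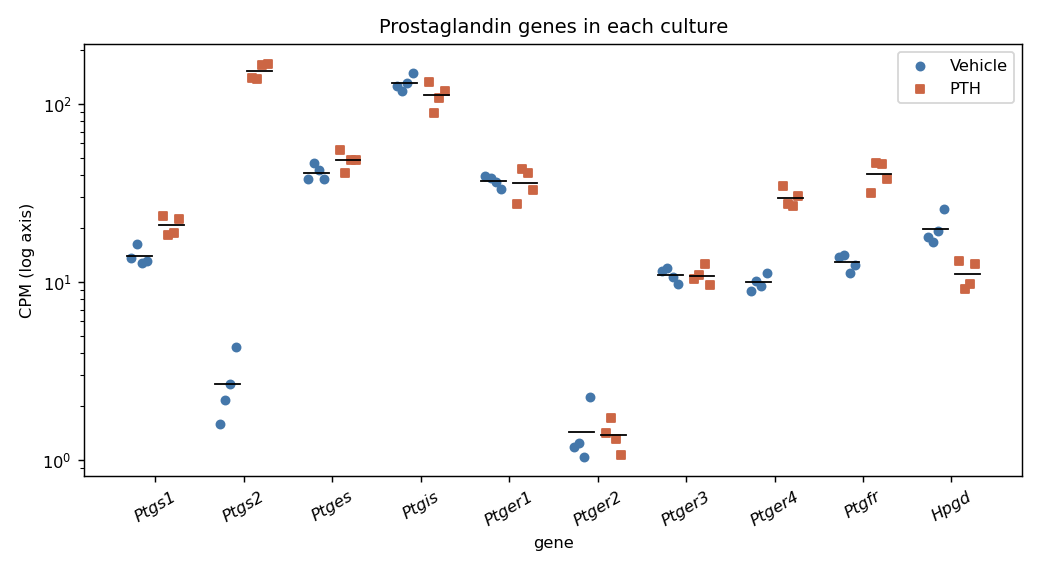
CPM (vertical log axis) of the 10 genes (horizontal axis) in the 4 vehicle-treated (circles) and 4 PTH-treated (squares) cultures, with a line at each mean. For Ptgs2 the vehicle-treated cultures lie between 1.58 and 4.33 CPM and the PTH-treated ones between 137 and 168 CPM.

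The stretches just before the RefSeq starts of the 3 genes with the largest increases are given here. They are shown because each of these genes rose by 1 or more on the log2 scale and Ptgs2 is a known target of cAMP signaling. That signaling is the main pathway of the PTH receptor. Gene positions in this report are those of GENCODE, in which Ptgfr extends to 151837630. The part of the Ptgfr stretch from 151837529 to that base therefore lies inside the gene as annotated there. Each line gives the 250 bases before the RefSeq start of the gene (GRCm38.p6), read 5′ to 3′ on the gene's strand, and capitals mark matches to TTNCNNAA, a C/EBP-like motif.
Ptgs2, chr1:150099781-150100030, plus strand: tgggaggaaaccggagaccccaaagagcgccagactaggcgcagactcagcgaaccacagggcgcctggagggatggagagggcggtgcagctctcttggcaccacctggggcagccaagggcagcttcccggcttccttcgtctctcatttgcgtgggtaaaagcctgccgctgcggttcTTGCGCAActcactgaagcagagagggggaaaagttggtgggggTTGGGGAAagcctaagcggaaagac
Ptger4, chr15:5244188-5244437, minus strand: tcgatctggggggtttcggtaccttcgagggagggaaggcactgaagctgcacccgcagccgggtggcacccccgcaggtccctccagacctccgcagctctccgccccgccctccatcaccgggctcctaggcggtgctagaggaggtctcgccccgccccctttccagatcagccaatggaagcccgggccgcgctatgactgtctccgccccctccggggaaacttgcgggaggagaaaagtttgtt
Ptgfr, chr3:151837529-151837778, minus strand: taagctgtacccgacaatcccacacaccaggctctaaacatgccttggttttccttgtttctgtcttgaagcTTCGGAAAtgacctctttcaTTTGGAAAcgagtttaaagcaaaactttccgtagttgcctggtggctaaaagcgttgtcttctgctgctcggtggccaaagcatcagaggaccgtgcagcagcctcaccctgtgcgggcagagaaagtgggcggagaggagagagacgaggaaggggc

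A window of 300 bases, from 250 before to 50 after the RefSeq start, was searched on both strands for 5 motifs. It was searched in the 8 genes that the promoter table lists, which leaves out Ptger1 and Ptgis. The RefSeq starts of Hpgd, Ptger2, Ptger3, Ptges and Ptgfr differ from their GENCODE starts, so motif places hold for the RefSeq starts only. The full cAMP response element TGACGTCA was found in 0 of the 8 windows and in 1.79% of all 32851 promoters. Its core TGACG, which lies within the full element, was found in Ptgs2 alone of the 8, and in 20.8% of all promoters. That match lies 14 to 18 bases after the RefSeq start of Ptgs2, in the stretch chr1:150100034-150100058, in which capitals mark the core as read on the other strand.
Ptgs2 core: gtcaccactaCGTCAcgtggagtcc
The C/EBP-like motif was found in 5 of the 8 windows (Hpgd, Ptger2, Ptges, Ptgfr and Ptgs2) and in 40.7% of all promoters. The Ptgs2 match 69 to 62 bases before the start reads the same on both strands. The AP-1 motif TGANTCA was found in 0 of the 8 windows and in 7.81% of all promoters. TATAAA was found only in the window of Hpgd, 5 to 10 bases after the RefSeq start, and in 13.6% of all promoters. That place lies before the GENCODE start of Hpgd at 56294585. These matches describe letters in one window and say nothing of binding in these cells.

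Ptgs2, which encodes cyclooxygenase-2 on chromosome 1 from 150100031 to 150108227, had the largest change of the 10 genes. Vehicle-treated cultures 1 to 4 had 1.58, 2.16, 2.67 and 4.33 CPM, and PTH-treated cultures 1 to 4 had 139.9, 137, 166 and 168 CPM. The vehicle-treated cultures differed among themselves by 2.74 times and the PTH-treated ones by 1.23 times, and the lowest PTH-treated culture stood 31.7 times above the highest vehicle-treated one. The mean rose from 2.69 ± 1.18 to 153 ± 16.7 CPM. The fitted change was 5.82 on the log2 scale (SE 0.233, adjusted p = 1.59e-09), or 56.5-fold with a 95% interval of 39.7 to 80.3. Of the 16736 tested genes, Ptgs2 had the 38th highest log2 fold change. The exact permutation test gave a two-sided p of 0.0286, the smallest that 70 assignments of 4 and 4 cultures allow, and gave the same for Ptgs1, Ptger4, Ptgfr and Hpgd.

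Ptgs2 is flanked by a pair of noncoding RNA genes on the other strand, which were picked after their values were seen. Ptgs2os begins 67 bases before the start of Ptgs2 and runs away from it, from 150074873 to 150099963. It had 0 to 18 counts per vehicle-treated culture and 25 to 47 per PTH-treated culture (log2 fold change 2.53, SE 0.727, adjusted p = 0.0133). Vehicle-treated culture 2 held 18 of the 30 vehicle counts of Ptgs2os, and the log2 fold change was 3.46 without that culture and ranged from 2.11 to 3.46 across the alternatives. Ptgs2os2, which lies 50815 bases beyond the end of Ptgs2, had 0 to 6 counts with vehicle and 19 to 35 with PTH (log2 fold change 3.55, adjusted p = 8.27e-04), and its log2 fold change ranged from 3.16 to 4.18 across the alternatives, with the highest value without vehicle-treated culture 4. Neither shares annotated exon bases with Ptgs2, and both rest on few counts.

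Ptgs1 encodes cyclooxygenase-1, the form that most tissues make at a steady level, on chromosome 2 from 36230426 to 36252272. The 4 vehicle-treated cultures had 13.6, 16.3, 12.7 and 13.1 CPM and the 4 PTH-treated cultures had 23.4, 18.3, 18.8 and 22.7 CPM. The lowest PTH-treated culture was 1.12 times the highest vehicle-treated one, so the treatments lay close to each other without overlap. Ptgs1 rose from 13.9 ± 1.60 to 20.8 ± 2.62 CPM (log2 difference 0.58, SE 0.111, adjusted p = 0.00111). Macrophages, which also express Ptgs1, were present in the cultures by their markers. The summed level of 10 macrophage markers was 1035 to 1680 CPM with vehicle and 1620 to 2083 CPM with PTH. Lyz2 alone made up most of that sum, with 748 to 1181 CPM with vehicle and 1170 to 1593 CPM with PTH. Of the 10 markers 2 were called higher (Cd14 and Lyz2) and none lower, beside 23.3% higher and 22.5% lower among all tested genes. Vehicle-treated culture 4 had the highest sum of its group, where the other 3 had at most 1267 CPM. Their part in the change of Ptgs1 was not tested, and in bulk RNA a change in the number of cells of a type and a change in RNA per cell cannot be told apart.

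Per kilobase of the longest annotated coding transcript, Ptgs2 made up a small share of the cyclooxygenase pair with vehicle and most of it with PTH. Its share of the summed CPM per kilobase of Ptgs1 and Ptgs2 was 6.97%, 7.86%, 11.9% and 17.6% in the vehicle-treated cultures. In the PTH-treated cultures it was 79.4%, 82.9%, 85.1% and 82.7%. The mean was 11.1% ± 4.82 with vehicle and 82.5% ± 2.35 with PTH (SD, n = 4 each). With the bases of all annotated exons as the length, the means were 14.02% and 86.1%.

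**Figure D2:**
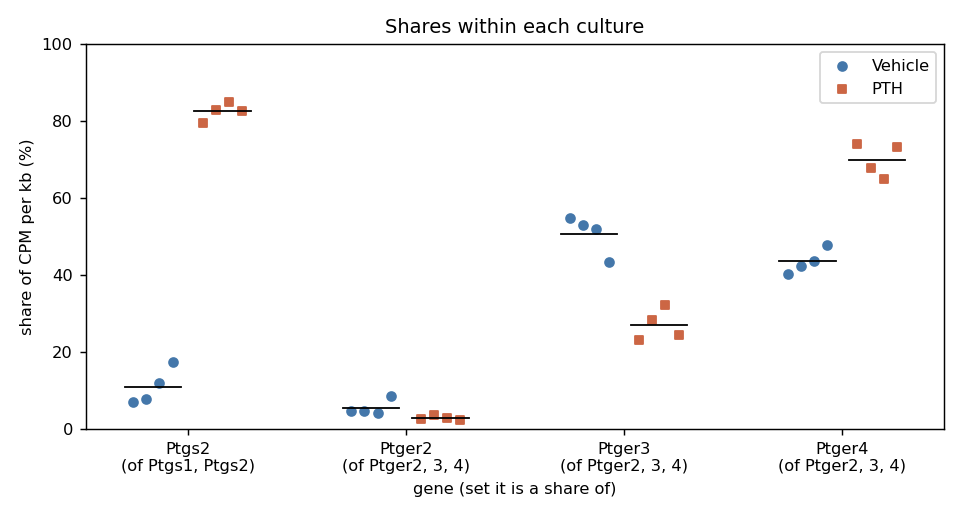
Share of CPM per kilobase (vertical axis, %) of Ptgs2 among the cyclooxygenase genes and of Ptger2, Ptger3 and Ptger4 among these PGE2 receptor genes, in the 4 vehicle-treated (circles) and 4 PTH-treated (squares) cultures, with a line at each mean. The Ptgs2 share lies between 6.97% and 17.6% with vehicle and between 79.4% and 85.1% with PTH.

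Neither of the terminal synthase genes passed the test. Ptges, which encodes the inducible microsomal PGE2 synthase on chromosome 2 from 30889471 to 30929863, had 37.9 to 46.3 CPM with vehicle and 41.0 to 55.0 CPM with PTH. Its groups overlapped, and the log2 fold change of 0.23 (95% interval 0.019 to 0.44) did not pass the adjusted threshold (adjusted p = 0.0722). Without PTH-treated culture 2, the lowest of its group, Ptges was called higher (log2 fold change 0.31, adjusted p = 0.0128), and across the alternatives tried its adjusted p ranged from 0.0128 to 0.198. Ptgis, which encodes prostacyclin synthase on chromosome 2 from 167191805 to 167240604, was the most abundant of the 10 genes per kilobase in vehicle-treated cultures. It had 117.8 to 149 CPM with vehicle and 89.5 to 132 CPM with PTH, with overlap, and its log2 fold change was -0.23 (95% interval -0.47 to 0.011, adjusted p = 0.111). Without PTH-treated culture 1, the highest of its group, Ptgis was called lower (log2 fold change -0.32, adjusted p = 0.0196, with a range of 0.0196 to 0.305 across the alternatives). Prostacyclin synthase is best known from blood vessels, and 5 of 7 endothelial markers (Pecam1, Cdh5, Emcn, Vwf and Cldn5) were below 1 CPM in every culture, with a summed level of all 7 of 6.41 to 7.26 CPM with vehicle and 6.03 to 7.51 CPM with PTH. Of the 7, 1 was called higher and 1 lower, beside 23.3% and 22.5% of all tested genes. Which cells expressed Ptgis was not tested.

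Of the PGE2 receptors, only Ptger4 passed the test. It encodes EP4, which couples to Gs and raises cAMP, on chromosome 15 from 5206661 to 5244187. The vehicle-treated cultures had 8.92, 10.1, 9.49 and 11.3 CPM, and the PTH-treated cultures had 34.6, 27.5, 26.5 and 30.4 CPM. Every PTH-treated culture had at least 2.36 times the level of the highest vehicle-treated one. The mean rose from 9.95 ± 1.004 to 29.8 ± 3.61 CPM. Its change was 1.58 on the log2 scale (SE 0.107, adjusted p = 1.80e-07), or 2.99-fold with a 95% interval of 2.55 to 3.52. It shares 82 exon bases, 1.23% of its own, with Ttc33 on the other strand, a gene that was lower with PTH (log2 fold change -0.50, adjusted p = 1.86e-04). A pseudogene within Ptger4, Gm15937, covers 15.3% of its exon bases and is listed with 0 counts in all 8 cultures.

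Ptger2 encodes EP2, the other Gs-coupled PGE2 receptor, on chromosome 14 from 44988195 to 45003820. It had the lowest counts of the 10 genes, 50 to 112 per vehicle-treated culture and 45 to 73 per PTH-treated culture. Vehicle-treated culture 4 had 2.26 CPM where the other 3 had 1.04 to 1.24 CPM, and the PTH-treated cultures had 1.07 to 1.72 CPM. The log2 fold change was -0.059 (adjusted p = 0.892), with a 95% interval of -0.72 to 0.60, or 0.607 to 1.52-fold. Without vehicle-treated culture 4 it was 0.25 (adjusted p = 0.519), and across the alternatives tried its adjusted p ranged from 0.519 to 0.993.

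Ptger3 encodes EP3, which couples mainly to Gi and lowers cAMP, on chromosome 3 from 157566892 to 157645888. It had 9.72 to 12.01 CPM with vehicle and 9.63 to 12.6 CPM with PTH, and the groups overlapped over nearly their whole range. Its log2 fold change was -0.016, with a 95% interval of -0.26 to 0.23 (adjusted p = 0.919). Among Ptger2, Ptger3 and Ptger4, the share of Ptger4 per kilobase was 43.6% ± 3.17 with vehicle and 69.99% ± 4.37 with PTH. That of Ptger3 was 50.8% ± 5.02 and 27.1% ± 4.08, and the treatments overlapped in neither share.

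Ptger1 encodes the calcium-linked receptor EP1 on chromosome 8 from 83666678 to 83672753. Its counts are uncertain, since the strand setting of the counting is not given in the sources used here, and it was left out of these shares for that reason. It had 1645 to 1754 counts with vehicle and 1380 to 1568 with PTH. In CPM the vehicle-treated cultures lay between 33.2 and 39.1 and the PTH-treated ones between 27.6 and 43.3, so the vehicle range fell within the PTH range. Ptger1 did not pass the test, with a log2 fold change of -0.025 (95% interval -0.30 to 0.25, adjusted p = 0.888).

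Ptgfr encodes FP, the receptor of PGF2α, which couples to Gq and raises calcium, on chromosome 3 from 151796502 to 151837630. The vehicle-treated cultures had 13.9, 14.2, 11.2 and 12.4 CPM and the PTH-treated cultures had 31.7, 46.5, 45.7 and 37.7 CPM. The lowest PTH-treated culture was 2.24 times the highest vehicle-treated one. The mean rose from 12.9 ± 1.37 to 40.4 ± 7.03 CPM, which was 1.64 on the log2 scale (SE 0.127, adjusted p = 6.12e-07), or 3.13-fold with a 95% interval of 2.58 to 3.79. Ptger1 aside, Ptgs1, Ptgis, Ptger2 and Ptgfr also share exon bases with a gene on the other strand. The shared bases make up 3.81% (Gm43621), 6.08% (1110018N20Rik), 4.74% (Gm17173) and 4.85% (Gm43618) of the exon bases of each, in that order. Those genes had at most 5, 47, 3 and 36 counts in any culture.

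Hpgd was the only one of the 10 genes called lower. It encodes 15-hydroxyprostaglandin dehydrogenase on chromosome 8 from 56294585 to 56321043, which oxidizes PGE2 and PGF2α to inactive products. The vehicle-treated cultures had 17.8, 16.8, 19.3 and 25.6 CPM, and the PTH-treated cultures had 13.03, 9.15, 9.71 and 12.6 CPM. Vehicle-treated culture 4 was the highest, and the lowest vehicle-treated culture was 1.29 times the highest PTH-treated one. The mean was 19.9 ± 3.94 CPM with vehicle and 11.1 ± 1.98 CPM with PTH (log2 difference -0.83, SE 0.153, adjusted p = 8.27e-04). When single cultures were left out, its difference stayed between -0.92 and -0.69 on the log2 scale, with an adjusted p of at most 0.00462.

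**Figure D3:**
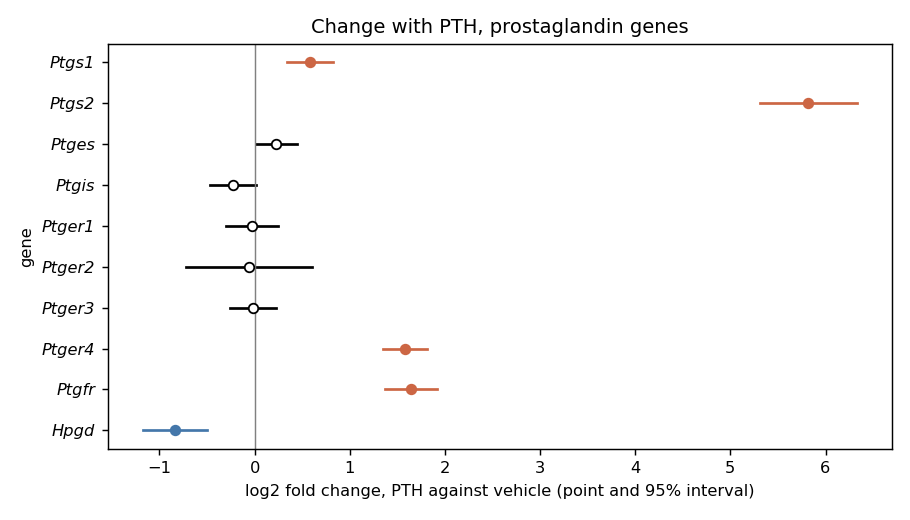
Log2 fold change of PTH against vehicle (horizontal axis) for the 10 genes (vertical axis), as points with 95% intervals from the edgeR fit. Filled points passed the adjusted threshold, orange for higher and blue for lower, and open points did not. Ptgs2 stands at 5.82, Ptgfr at 1.64 and Ptger4 at 1.58, and Hpgd at -0.83.

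Levels between genes were compared as CPM per kilobase of the longest coding transcript. With vehicle, Ptgis stood first at 62.3 ± 6.25, followed by Hpgd at 11.8 ± 2.34 and Ptges at 11.3 ± 1.10, which overlapped each other. Next came Ptger1 (7.83 ± 0.557), whose level and place in both orders are uncertain like its counts, then Ptgs1 (4.86 ± 0.559), Ptger3 (3.49 ± 0.317) and Ptger4 (3.003 ± 0.303), of which the last pair overlapped. Ptgfr (1.95 ± 0.207) lay below them, and Ptgs2 (0.603 ± 0.266) and Ptger2 (0.388 ± 0.151) overlapped at the end. With PTH, Ptgis remained first at 53.1 ± 8.46, Ptgs2 was second at 34.4 ± 3.75 and Ptges was at rank 3 with 13.2 ± 1.58, with no overlap between these neighbours. Ptger4 (8.99 ± 1.09), Ptger1 (7.70 ± 1.55), Ptgs1 (7.26 ± 0.913), Hpgd (6.61 ± 1.18) and Ptgfr (6.10 ± 1.06) followed, each overlapping the next. Ptger3 (3.45 ± 0.395) and Ptger2 (0.374 ± 0.0729) were last. Hpgd moved from rank 2 to rank 7 and Ptgs2 from rank 9 to rank 2 in the order of levels. With the length of all annotated exons the first 3 genes in each treatment were the same, while Ptgfr stood above Ptger4 with vehicle (1.905 and 1.496) and with PTH (5.96 and 4.48). By that length Ptger4 was at rank 8 with PTH in place of rank 4, and Hpgd at rank 5 in place of rank 7, so the order from rank 4 to rank 8 with PTH depends on the length used.

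**Figure D4:**
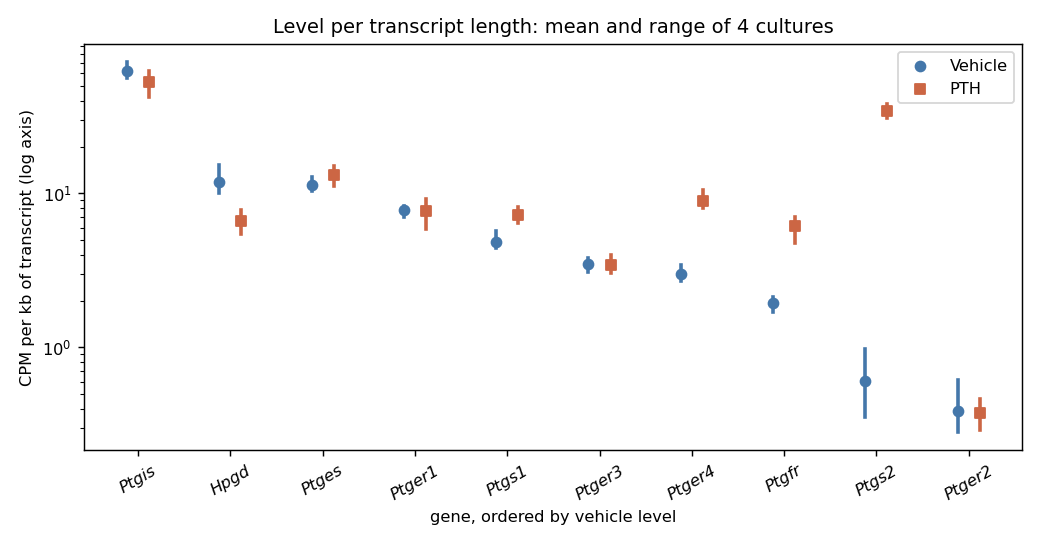
CPM per kilobase of the longest coding transcript (vertical log axis) for the 10 genes in order of their vehicle level (horizontal axis), as the mean (point) and the range (bar) of 4 vehicle-treated (circles) and 4 PTH-treated (squares) cultures. Ptgs2 is at 0.603 with vehicle and at 34.4 with PTH.

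Genes with a similar pattern were sought for Ptgs2, Ptger4 and Ptgfr, the called genes that changed by 1 or more on the log2 scale. Likeness was the root mean square difference, over the 8 cultures, between log2 CPM values each centred on its vehicle mean. It was taken among the 14072 genes whose mean level reached 1 CPM. Values centred this way make the nearest genes largely those with a similar fold change, and shared regulation was not tested. For Ptgs2 the nearest genes were Rasd1, a Ras-related GTPase (0.265 log2 units), the vitamin D receptor gene Vdr (0.280) and Areg, which encodes amphiregulin (0.326). Rasd1 had a mean of 0.432 CPM with vehicle and 22.9 CPM with PTH, and Areg had 0.0101 and 2.93 CPM. Both genes reached the mean of 1 CPM only through the PTH-treated cultures. The value of 0.326 for Areg depends on the prior count of 2 added to its near-zero vehicle counts. The fitted log2 fold change of Areg was 7.76 where that of Ptgs2 was 5.82. For Ptger4 they were Cmklr1, the chemerin receptor (0.0796), the amino acid transporter gene Slc7a5 (0.0853) and Hsd17b7, an enzyme of cholesterol synthesis (0.0968). For Ptgfr they were Xdh, which encodes xanthine dehydrogenase (0.109), Rsad1 (0.110) and Cdk11b (0.118).

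The rest of the pathway was taken from a list of 53 other prostanoid and eicosanoid genes set by role. Of these, 36 had enough counts to be tested, 10 were higher with PTH and 7 were lower, beside the 23.3% and 22.5% of all tested genes. Their median log2 fold change was 0.11. The counts by role below stand beside the same 23.3% higher and 22.5% lower among all tested genes.

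Of 21 phospholipase A2 genes, 8 were tested, 3 were higher and 1 was lower. Pla2g4a, the cytosolic enzyme that releases arachidonic acid and was picked after its values were seen, rose from 19.6 ± 0.663 to 25.1 ± 3.07 CPM (log2 difference 0.36, adjusted p = 0.00622). Pla2g4b was also called higher (log2 fold change 1.09, adjusted p = 0.0345), but it had only 19 to 96 counts and the authors' assembly places it in 1 locus with Jmjd7 and Gm28042, the latter sharing 66.5% of its exon bases. It was not called without PTH-treated culture 2 or 4 or without vehicle-treated culture 1 or 3, with adjusted p between 0.0555 and 0.119. Pla2g15, a lysosomal phospholipase, was lower (log2 fold change -0.62, adjusted p = 6.21e-05). The secreted enzymes Pla2g1b, Pla2g2c and Pla2g2f and the cytosolic Pla2g4d had 0 counts in every culture, which at the floor of 3 counts per library does not show that they are absent.

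All 8 other synthase genes were tested, 2 of them higher and 2 lower. Hpgds, the hematopoietic PGD2 synthase, rose from 12.7 ± 2.48 to 17.7 ± 1.78 CPM (log2 difference 0.48, adjusted p = 0.0116). Hpgds is known from macrophages and mast cells. The 6 mast cell markers were below 1 CPM in every culture, and 3 of them had 0 counts throughout. The macrophage markers given beside Ptgs1 summed to 1035 to 1680 CPM with vehicle and 1620 to 2083 CPM with PTH, so the treatments overlapped. Lyz2 made up most of that sum. The part of macrophages in the change of Hpgds was not tested. Akr1b3, an aldose reductase with PGF synthase activity, was lower in every PTH-treated culture (log2 fold change -0.26, adjusted p = 0.0207), but was not called without PTH-treated culture 2 or 4 or vehicle-treated culture 4 (adjusted p 0.0640, 0.0555 and 0.0723). Ptges2 and Ptges3, the other PGE2 synthases, had log2 fold changes of 0.12 (adjusted p = 0.328) and 0.14 (adjusted p = 0.170).

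Of the 4 other prostanoid receptor genes, the prostacyclin receptor and the thromboxane receptor moved in opposite directions. Ptgir had 3.004 to 4.64 CPM with vehicle and 6.56 to 8.15 CPM with PTH (log2 difference 0.95, SE 0.159, adjusted p = 4.26e-04). Tbxa2r had 22.3, 24.3, 24.9 and 19.2 CPM with vehicle and 8.25, 7.52, 7.65 and 8.87 CPM with PTH. Every PTH-treated culture was below every vehicle-treated one for Tbxa2r (log2 fold change -1.49, SE 0.105, adjusted p = 2.58e-07). The PGD2 receptor gene Ptgdr had 0 to 33 counts and did not pass the test (adjusted p = 0.694), and Ptgdr2 had too few counts to be tested.

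Among 6 genes of transport and further degradation, 2 were higher and 1 was lower. Slco2a1, which encodes the transporter that takes prostaglandins up from outside the cell, rose from 2.52 ± 0.462 to 5.25 ± 0.832 CPM (log2 difference 1.05, SE 0.183, adjusted p = 5.51e-04). Zadh2, a prostaglandin reductase, was lower (log2 fold change -0.48, adjusted p = 6.84e-05). Abcc4, which exports prostaglandins, had a log2 fold change of -0.076 (adjusted p = 0.565).

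Of 14 lipoxygenase and leukotriene genes, 11 were tested, 2 were higher and 2 were lower, and the largest changes were at low counts. Cysltr2, a cysteinyl leukotriene receptor, had 0, 0, 3 and 2 counts with vehicle and 196, 62, 88 and 129 with PTH. The ratio of its summed counts, scaled for depth, was 107 with a 95% counting interval of 45.6 to 331 (adjusted p = 1.70e-06 by edgeR). Alox8 had 24, 22, 16 and 12 counts with vehicle and 0 in every PTH-treated culture, which makes it at least 5.42-fold lower against a floor of 3 counts per library (adjusted p = 3.36e-04 by edgeR). Alox12, the platelet-type 12-lipoxygenase, had 6 to 18 counts with vehicle and 16 to 67 with PTH (log2 fold change 2.10, SE 0.508, adjusted p = 0.00502). Alox5 and Alox5ap, which start leukotriene synthesis, had log2 fold changes of 0.066 (adjusted p = 0.805) and 0.32 (adjusted p = 0.118). Intervals and floors cover counting error only.

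**Figure D5:**
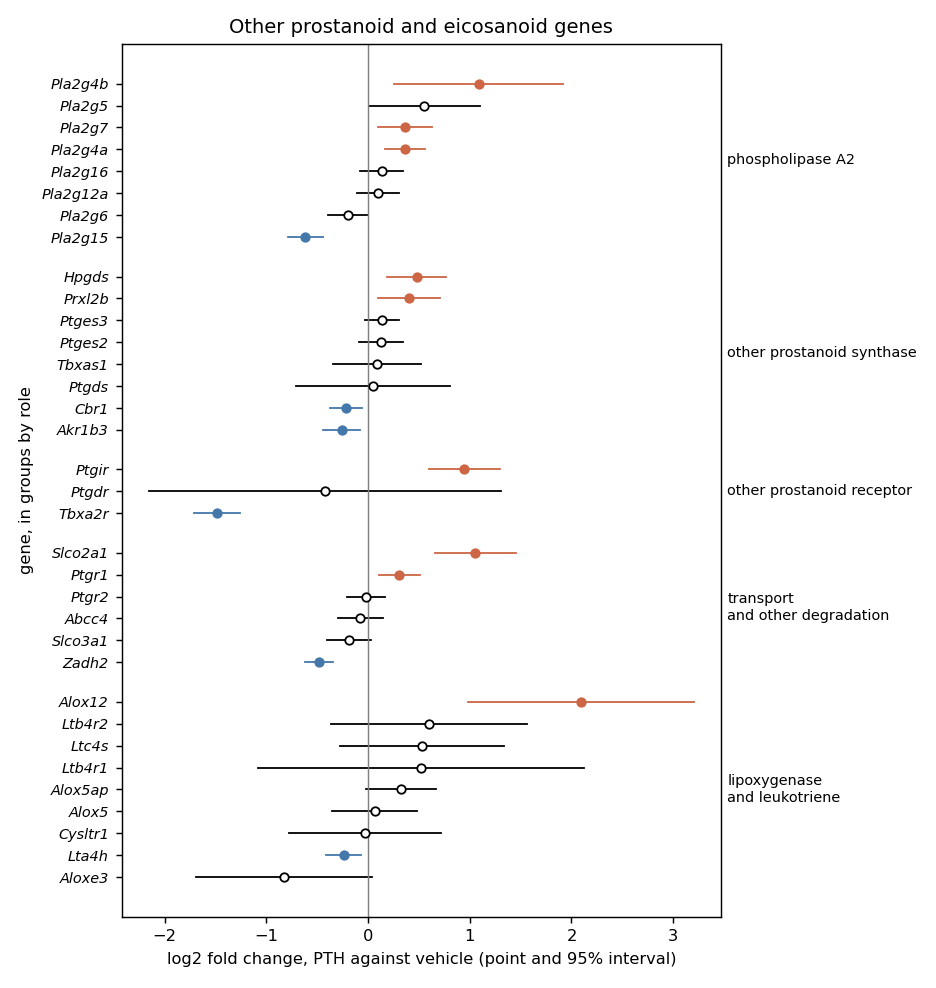
Log2 fold change of PTH against vehicle (horizontal axis) with 95% intervals from the edgeR fit for 34 of the 36 other pathway genes tested (vertical axis), in groups by role, without Alox8 and Cysltr2, whose counts were 0 in cultures of one treatment. Filled points passed the adjusted threshold, orange for higher and blue for lower, and open points did not. Tbxa2r stands at -1.49 and Slco2a1 at 1.05.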

How the data were processed

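RNA was measured in 8 cultures, 4 per treatment, grouped by their labels. The authors sequenced poly(A) RNA, mapped reads with HISAT2 on GRCm38 and assembled transcripts with StringTie2. They deposited whole-number counts per gene, which StringTie2's companion script estimates from transcript coverage, so a gene's count depends on how the assembly divides overlapping transcripts. The annotation, strand and read length settings are not given in the sources used here. The submitters' notes name DESeq2 for the comparison.

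Here counts were filtered with filterByExpr (minimum count 10, minimum total 15), normalized by TMM and tested in edgeR 4.0.16 in R 4.3.3, and the step was tested on simulated data. Exact permutation tests used log2(CPM + 0.1). Log2 CPM for the likeness measure had a prior count of 2. Standard errors and intervals were derived from the F statistic. Exons, lengths and positions are from GENCODE M21 (GRCm38), promoters from RefSeq (GRCm38.p6). Summaries used Python 3.11.15 and pandas 2.3.3. Chi-square statistics showed that no 2 libraries of a treatment agreed within counting noise.

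The 10 genes and the other lists were chosen with earlier results of these data known. Named were all 10, overlapping genes, Tnfsf11 and 3 genes of like pattern. Per role, the rule also named the other pathway genes called with an absolute log2 fold change of at least 1. Where there was none in a direction, it named the largest called change. Outside the rule, Ptges2, Ptges3, Ptgdr, Abcc4, Alox5 and Alox5ap, which were not called, were also named, as were genes with too few counts to be tested. 1 gene that the rule names is not reported here. The alternatives were DESeq2 1.42.0, edgeR with DESeq2's size factors, testing without the low-count filter, the sample number as a block, each sample left out, halved counts, counts summed by symbol, and a minimum log2 fold change of 1. Of 6 chondrocyte markers 2 were higher. The summed level of the 6 was 411 to 468 CPM with vehicle and 481 to 612 CPM with PTH. Of 6 skeletal muscle markers 1 was higher, with sums of 2.28 to 3.28 CPM and 2.83 to 4.80 CPM. Among all tested genes, 23.3% were called higher.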

Additional observations from a re-analysis of the deposited data

Results flagged for a closer look

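Ptger2 in vehicle-treated culture 4 stood apart from its group, at 2.26 CPM where the other 3 vehicle-treated cultures had 1.04 to 1.24 CPM. It was marked because its gap to the next culture took 0.838 of the range of the group, above Dixon's 95% critical value for 4 samples. It was the only one marked of 20 groups examined, and chance marks about 1 in 20.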

How the results depend on the processing

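The calls of Ptgs1, Ptgs2, Ptger4, Ptgfr and Hpgd kept their direction and stayed under 0.05 in the 14 alternatives that tested against no change. Over these the log2 fold change lay between 5.63 and 6.15 for Ptgs2, 0.52 and 0.65 for Ptgs1, 1.498 and 1.646 for Ptger4, 1.57 and 1.74 for Ptgfr, and -0.92 and -0.69 for Hpgd. When single samples were left out, the number of the 10 genes called higher lay between 4 and 5 and the number called lower between 1 and 2, the additions being Ptges and Ptgis. For the other pathway genes these numbers lay between 7 and 11 (higher) and between 4 and 8 (lower, with 4 without PTH replicate 2). Without the filter on low counts, 6 other pathway genes were higher, while 47 were tested in place of 36. Against a minimum log2 fold change of 1, edgeR called 3 of the 10 genes higher and 0 lower, without Ptgs1 and Hpgd, and 1 and 2 of the others. Besides Akr1b3 and Pla2g4b, the calls of Pla2g7, Prxl2b, Cbr1, Ptgr1 and Lta4h were each lost in at least 4 of 13 alternatives, with adjusted p up to 0.101. The uncalled values that changed sign in some fits ranged, with each sample left out, from -0.11 to 0.083 for Ptger1, from -0.19 to 0.25 for Ptger2 and from -0.096 to 0.036 for Ptger3. With the sample number as a replicate block, 4 of the 10 genes were higher and 1 lower, and 10 and 5 of the others. For samples of the same number, the deviations from the treatment means correlated between -0.041 and 0.027 across genes. These correlations cannot tell whether such samples came from 1 cell preparation, which no source used here states. Depth limits Ptger2, Cysltr2, Alox8, Alox12, Pla2g4b and both noncoding RNAs most.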
